A study of Caenorhabditis elegans with 2 samples.

Results

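The chromosome IV piRNA clusters of Caenorhabditis elegans held 2900 of the 29431 peaks in the pooled relaxed list of a ChIP-seq study of the nuclear hormone receptor NHR-12. ChIP-seq sequences DNA recovered with an antibody and reports enriched intervals as peaks, each with a summit, its point of highest enrichment. The relaxed list is labelled as peaks and background, the input to the submitters' reproducibility threshold. Its entries, called peaks here, can therefore include background and are not a set of NHR-12 binding sites. The relaxed lists of replicates 1 and 2 hold 30000 entries each. The 2900 peaks are those with a summit at 4.5 to 7.0 Mb (the first cluster, 954 peaks) or at 13.5 to 17.2 Mb (the second cluster, 1946 peaks) of chromosome IV on the ce11 build. The other 3227 peaks of the chromosome are the reference. Position alone chose the peaks, and the clusters hold 14204 of the 14714 annotated piRNA genes of chromosome IV (96.5%), 2816 in the first cluster and 11388 in the second.

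The study has 1 group of 2 biological replicates, whole animals at the L2 larval stage, of strain OP318. Their sex is given as males and females pooled, which was not checked. Both replicates carry the unc-119(ed3) III mutation and the insertion wgIs318 with nhr-12 fused to eGFP, and the antibody is labelled nhr-12. The labels name no promoter for the transgene and no age beyond the stage. There is no second condition and no RNA measurement, so no difference between groups was tested, and cell types could not be checked by markers. The lists carry no read counts, so depth is unknown.

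piRNAs are small RNAs that guide Piwi-type Argonaute proteins against transposons and other foreign transcripts in the germline. In C. elegans they are the 21U-RNAs, bound by PRG-1, and each is transcribed as its own short unit. Many of these units carry the motif CTGTTTCA upstream of the piRNA 5′ end and lie in A/T-rich DNA, where a complex with PRDE-1, SNPC-4, TOFU-4 and TOFU-5 binds. Nuclear hormone receptors are ligand-regulated or orphan transcription factors, a family much expanded in this worm.

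The DNA under some named peaks of the clusters is shown first. Each window is the summit with 50 bases on each side, plus strand, from the RefSeq WBcel235 genome (the same assembly as ce11). Capitals mark runs of 4 or more A or of 4 or more T. The first pair are the strongest peaks of each cluster, both of which passed the submitters' reproducibility threshold.
Summit of the strongest peak of the first cluster, chrIV:4750029-4750129: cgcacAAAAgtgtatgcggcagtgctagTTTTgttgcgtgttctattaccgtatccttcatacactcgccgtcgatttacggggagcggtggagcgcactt
Summit of the strongest peak of the second cluster, chrIV:15472513-15472613: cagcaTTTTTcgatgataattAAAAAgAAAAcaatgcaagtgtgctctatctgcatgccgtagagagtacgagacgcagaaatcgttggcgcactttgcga
These windows have a GC content of 51.5% and 42.6%, and no piRNA 5′ end lies within 250 bp of either summit.

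The next pair also passed the threshold but lie among piRNA genes, with a GC content of 19.8% and 24.8%.
Summit beside 21ur-9267, chrIV:14625070-14625170: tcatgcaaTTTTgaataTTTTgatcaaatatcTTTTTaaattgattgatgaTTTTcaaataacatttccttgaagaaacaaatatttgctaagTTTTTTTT
Summit beside 21ur-2078, chrIV:15756053-15756153: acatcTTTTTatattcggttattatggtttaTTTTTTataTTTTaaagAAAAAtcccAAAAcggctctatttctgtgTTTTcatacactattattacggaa
The peaks with the most piRNA 5′ ends within 250 bp, 10 in the second cluster and 6 in the first, were not in the thresholded list.
Summit beside 21ur-129, chrIV:16660910-16661010: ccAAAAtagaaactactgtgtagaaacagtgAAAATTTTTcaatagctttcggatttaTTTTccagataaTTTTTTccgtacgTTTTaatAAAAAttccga
Summit beside 21ur-11877, chrIV:6508472-6508572: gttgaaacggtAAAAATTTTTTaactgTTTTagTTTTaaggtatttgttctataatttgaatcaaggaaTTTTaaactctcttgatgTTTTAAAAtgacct

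The piRNA genes beside 3 of these low-GC peaks, and 21ur-1415 from the peak with the next most piRNA 5′ ends in the second cluster, are shown on their own strand, with 60 bases upstream in lower case and the 21 bases of the piRNA in capitals. Where CTGTTTCA occurs in the 60 bases it is in capitals too.
21ur-9267, plus strand, chrIV:14625159-14625239: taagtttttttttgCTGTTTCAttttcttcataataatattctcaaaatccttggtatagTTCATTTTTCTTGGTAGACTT
21ur-11877, plus strand, chrIV:6508445-6508525: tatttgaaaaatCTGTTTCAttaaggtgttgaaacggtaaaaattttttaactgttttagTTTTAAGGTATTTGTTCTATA
21ur-1415, minus strand, chrIV:16564293-16564373: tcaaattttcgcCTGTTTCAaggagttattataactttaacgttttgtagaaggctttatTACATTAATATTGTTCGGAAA
21ur-2078, minus strand, chrIV:15755953-15756033: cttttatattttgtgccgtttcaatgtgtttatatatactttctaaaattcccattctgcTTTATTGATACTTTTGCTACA
The motif starts 46, 48 and 48 bases before the piRNA in the first 3, and 21ur-2078 has no exact copy. Of all 14204 piRNA genes in the clusters, 34.8% had an exact copy in the 60 bases upstream, on the gene's own strand, starting a median of 46 bases before the piRNA.

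Peaks were denser in the clusters than elsewhere on the chromosome. The pooled list had 382 peaks per Mb in the first cluster and 526 per Mb in the second, against 286 per Mb in the rest of chromosome IV, a ratio of 1.64 for both clusters together. Replicate 1 had 328 and 354 peaks per Mb in the clusters against 294 in the rest (ratio 1.17). Replicate 2 had 402 and 543 against 292 (ratio 1.66). The order, with the second cluster above the first and the first above the rest, was the same in every list, and the excess was smaller in replicate 1.

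The clusters made up 35.4% of the chromosome's length and held 47.3% of its pooled peaks, 39.1% of those of replicate 1 and 47.7% of those of replicate 2. The flanks were not alike: the pooled density was 268 per Mb left of the first cluster, 294 per Mb between the clusters and 371 per Mb in the 0.294 Mb right of the second cluster, where 175 further piRNA genes lie. On the other nuclear chromosomes it ranged from 234 to 341 per Mb, highest on X. Both clusters were denser than every other chromosome taken as a whole in the pooled list and replicate 2, but in replicate 1 the first cluster (328 per Mb) was below X (337 per Mb). The peaks of each list have 1 width, 320 bp in the pooled list, and neighbouring summits were never closer than 199 bp. The median gap between neighbouring pooled summits was 1602 bp in the first cluster, 1242 bp in the second and 1998 bp in the rest.

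**Figure D1:**
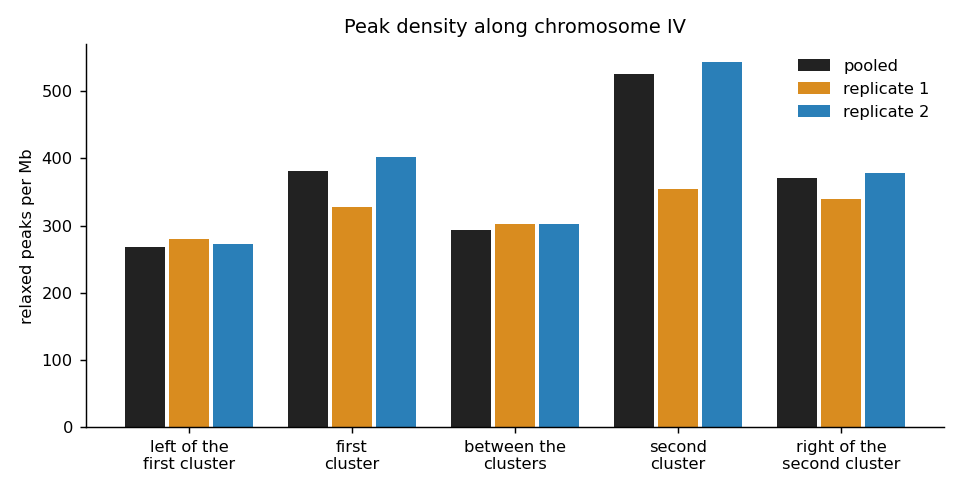
Relaxed peaks per Mb (vertical axis) in 5 consecutive regions of chromosome IV, for the pooled list and each replicate. In the second cluster the pooled list and replicate 2 reach 526 and 543 per Mb and replicate 1 reaches 354, while the region between the clusters lies at 294 to 302 in the 3 lists.

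Peaks in the clusters were slightly stronger in the pooled list and replicate 2, and hardly so in replicate 1. The deposited signal value, the peak caller's own measure on a scale that differs between lists, had a pooled median of 13.1 in the first cluster, 13.3 in the second and 12.5 in the rest. In replicate 1 the median was 3.71 in the clusters and 3.67 in the rest, and in replicate 2 it was 11.2 and 10.5. The upper 10% of all peaks by signal took in 11.7% of the pooled cluster peaks and 8.96% of the pooled peaks of the rest. It took in 8.59% and 8.90% in replicate 1, the other way round, and 11.9% and 8.58% in replicate 2. By cluster, the upper 10% held 112 pooled peaks of the first (11.7% of its peaks) and 226 of the second, denser cluster (11.6%). The single highest pooled signal was 107 in the first cluster, 46.6 in the second and 94.5 in the rest.

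Summits in the clusters lay closer to piRNA 5′ ends than the bases of the clusters do. In the pooled list 1472 of 2900 summits (50.8%) were within 100 bp of a piRNA 5′ end, whereas 29.8% of all cluster bases are, a ratio of 1.70. Replicate 1 had 885 of 2131 (41.5%, ratio 1.39) and replicate 2 had 1513 of 3015 (50.2%, ratio 1.68). The median distance to the nearest piRNA 5′ end was 98 bp for pooled summits, 143 bp for replicate 1 and 100 bp for replicate 2, against 249 bp for a base of the clusters. All 3 lists were therefore on the same side of the base value, with replicate 1 nearest to it.

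The 2 clusters differ in how crowded they are, and the excess held in each. In the first cluster 34.5% of pooled summits and 17.0% of bases were within 100 bp, a ratio of 2.03, and in the second 58.7% and 38.5%, a ratio of 1.53. In replicate 1 the ratios were 1.36 and 1.38, so the contrast between the clusters appeared in the pooled list and in replicate 2 (1.95 and 1.53) and not in replicate 1. Outside the clusters piRNA genes are sparse: 1.61% of pooled summits and 0.801% of bases of the rest of the chromosome lay within 100 bp of one, a ratio of 2.01 that rests on 52 summits.

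Density was higher where more piRNA genes lay nearby. Cluster bases with no piRNA 5′ end within 250 bp, 49.9% of the clusters, had 231 pooled peaks per Mb, below the 286 per Mb of the rest of the chromosome. Bases with 1 such end had 554 per Mb, those with 2 had 700, those with 3 to 4 had 839 and those with 5 or more had 928. The same steps were 251, 378, 432, 488 and 542 per Mb in replicate 1 and 241, 578, 721, 868 and 981 in replicate 2. Over both clusters each list was thus ordered by piRNA number, and in each the bases without a nearby piRNA were less dense than the rest of the chromosome. The median signal was 12.9 at 0 and 13.5 at 5 or more in the pooled list, a far smaller range than that of the density.

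**Figure D2:**
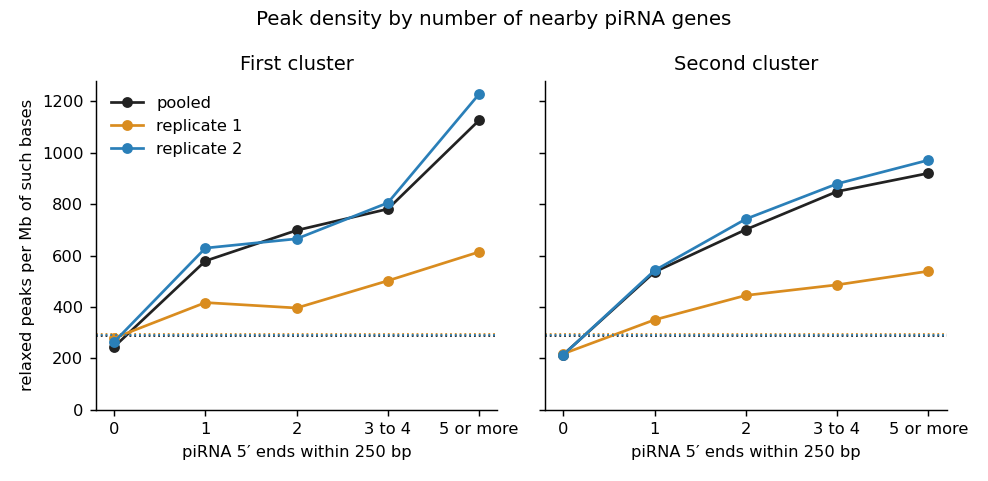
Relaxed peaks per Mb of bases (vertical axis) by the number of piRNA 5′ ends within 250 bp (horizontal axis), for each cluster and list; dotted lines give the rest of chromosome IV. The pooled values climb from 245 to 1126 per Mb in the first cluster, where the last point rests on 11 peaks, and from 215 to 920 in the second; those of replicate 1 run from 279 to 614 in the first cluster, with a dip from 417 at 1 to 396 at 2 and a last point of 6 peaks, and from 218 to 539 in the second.

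Over bins of 100 kb, pooled peaks per bin ranged from 16 to 60 in the first cluster and from 28 to 80 in the second. Spearman's rho of peak number with piRNA gene number was 0.84 across the 25 bins of the first cluster and 0.84 across the 37 bins of the second. It was 0.62 and 0.65 in replicate 1, 0.79 and 0.82 in replicate 2, and 0.16 across the 112 other bins of the chromosome in the pooled list. Neighbouring bins share a library and a base composition. In the pooled list rho with the mean GC content of the bin was −0.48 in the first cluster and −0.60 in the second. Across the other bins it was −0.47, with −0.048 in replicate 1 and −0.52 in replicate 2.

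Around the piRNA 5′ end, the pooled summit density was highest 51 to 100 bp upstream in both clusters, at 945 per Mb in the first and 940 per Mb in the second. It averaged 571 and 673 per Mb in the outer parts of the 1000 bp examined on each side. The same 50-bp bin had the lowest GC content, 25.9% in the first cluster and 24.6% in the second, against 31.9% and 30.4% in the outer parts. In the second cluster the highest bin of replicate 1 was the same one (553 per Mb) and that of replicate 2 was the next one upstream (926 per Mb). In the first cluster both replicates had their highest bin 801 to 850 bp upstream, at 568 and 859 per Mb, and in the bin 51 to 100 bp upstream they had 398 and 831 per Mb.

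**Figure D3:**
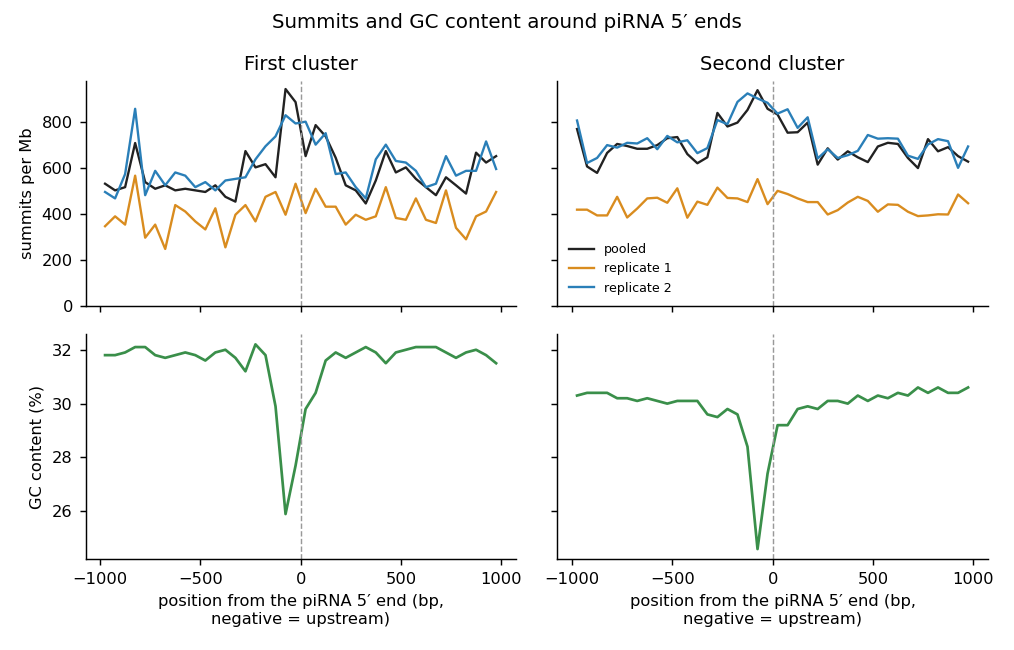
Summits per Mb (upper panels) and GC content in percent (lower panels) in 50-bp bins around the 5′ ends of 2816 piRNA genes of the first cluster and 11388 of the second, oriented by the gene's strand. Pooled density reaches 945 and 940 per Mb in the bin 51 to 100 bp upstream, where GC content is lowest, while the replicate 1 line is flatter.

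Seen from the piRNA genes, 2401 of 14204 in the clusters (16.9%) had a pooled summit within 100 bp, against 9.40% of all cluster bases. The share was 9.86% in replicate 1 (bases 6.91%) and 17.2% in replicate 2 (bases 9.77%). An upstream CTGTTTCA made little difference to it: 791 of 4944 piRNA genes with the motif and 1610 of 9260 without (17.4%) had a pooled summit within 100 bp, as had 474 (9.59%) and 926 in replicate 1. piRNA genes inside protein-coding genes had 16.8%, against 7.69% of bases there (ratio 2.18), and those outside had 17.0%, against 11.1% of bases (ratio 1.53). The ratios were 1.49 and 1.36 in replicate 1 and 2.03 and 1.54 in replicate 2. The 941 protein-coding genes of the clusters stood on the other side of the base value in 2 of the 3 lists, with 5.42% in the pooled list, 5.31% in replicate 2 and 7.76% in replicate 1. An excess was also present at piRNA genes outside the clusters. In the pooled list 12.2% of the 510 in the rest of chromosome IV had such a summit (bases 5.74%). So had 10.9% of the 649 on the other chromosomes (bases 5.65%). In replicate 1 these shares were 6.67% (bases 5.92%) and 8.94% (bases 5.95%). Overlapping piRNA genes share summits, so piRNA genes are not independent.

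The piRNA-rich bases are also A/T-rich, and relaxed summits favoured A/T-rich DNA both in the clusters and in the rest of the chromosome. The median GC content of a pooled summit with 50 bases on each side was 25.7% in the clusters (all bases 31.7%) and 27.7% in the rest (all bases 34.7%). In replicate 1 it was 28.7% and 32.7%, and in replicate 2 it was 25.7% and 27.7%. Within the clusters mean GC content fell with piRNA number, from 36.1% for bases with no piRNA 5′ end within 250 bp to 27.4% for those with 5 or more. GC content therefore moved with both the density and the nearness to piRNA genes.

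Comparing bases of like GC content made both differences smaller, with every ratio still above 1. Standardised over strata of 5 percentage points of GC, the density ratio of the clusters over the rest was 1.25 in the pooled list, 1.08 in replicate 1 and 1.27 in replicate 2. The ratio for summits within 100 bp of a piRNA 5′ end became 1.20, 1.20 and 1.17. The standardised nearness and the standardised replicate densities were added after the data were seen. How far control coverage, mappability or A/T content enter the relaxed peaks was not tested.

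Within a stratum, cluster bases near piRNA genes and those away from them lay on opposite sides of the rest of the chromosome. At a GC content of 20 to 25%, the pooled list had 1233 peaks per Mb of cluster bases with a piRNA 5′ end within 250 bp, 620 per Mb of those without and 832 per Mb in the rest. Replicate 1 had 564, 304 and 448 per Mb, and replicate 2 had 1307, 727 and 838. At 25 to 30% the pooled values were 801, 425 and 515 per Mb. At 40 to 45% the pooled values were 121, 86.2 and 74.6 per Mb, so in that stratum, the most GC-rich examined, cluster bases without a nearby piRNA were not below the rest.

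**Figure D4:**
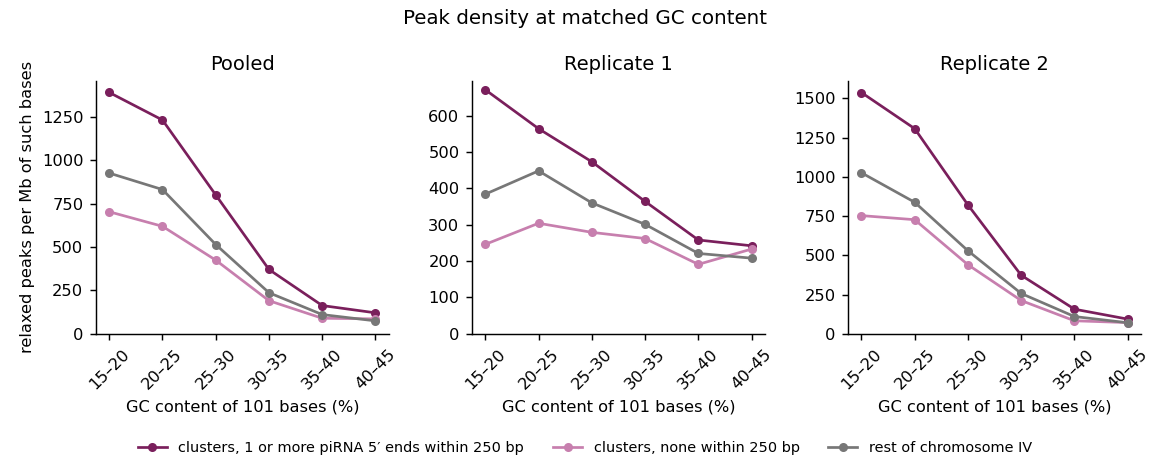
Relaxed peaks per Mb of bases (vertical axes, each panel with its own scale) by GC content of a window with 50 bases on each side (horizontal axis), for cluster bases with and without a piRNA 5′ end within 250 bp and for the rest of chromosome IV. At 20 to 25% GC the pooled values are 1233, 620 and 832 per Mb, and those of replicate 1 are 564, 304 and 448.

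Short words in these windows were counted without matching on GC content. The run AAAAAA, on either strand, was in 64.6% of pooled cluster windows and in 48.3% of windows around every cluster base. CTGTTTCA, on either strand, was in 12% of pooled cluster windows and 7.36% of all cluster windows, in 9.39% for replicate 1 and 10.8% for replicate 2. In the rest of the chromosome it was in 1.27% of pooled windows and 0.760% of all windows. AGGTCA, the half-site many nuclear hormone receptors bind, was in 1.45% of pooled cluster windows and 1.95% of all cluster windows, and in 1.97% and 1.29% for the replicates. It was in none of the 8 thresholded windows of the clusters and none of the 14 of the rest. At shares this low, so few windows cannot show an absence. A match is a description of letters and not a binding site.

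The clusters differ from the rest of the chromosome in what they hold, with 45.8% intergenic bases against 32.4% and 16.9% coding bases against 25.7%. The density was higher in the clusters within intergenic, intronic and coding DNA. Intergenic DNA had 555 pooled peaks per Mb in the clusters and 384 in the rest, introns of protein-coding genes 519 and 336, and coding sequence 125 and 85.0. In replicate 1 the intergenic values were 367 and 331 per Mb, those of introns 362 and 300, and those of coding sequence 221 and 218. Untranslated parts of coding exons had 450 and 381 pooled peaks per Mb, but 307 and 397 in replicate 1, the other way round. Bases within 500 bp of a protein-coding 5′ end had 383 and 321 pooled peaks per Mb. Annotated piRNA sequence itself, 3.75% of cluster bases, held 182 pooled summits (782 per Mb).

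Overlap in both replicates was about as frequent in the clusters as elsewhere. A relaxed peak of each replicate overlapped, by at least 1 bp, 897 of the 2900 pooled cluster peaks (30.9%, exact 95% interval 29.3 to 32.6), while the share was 28.8% in the rest of the chromosome and 29.8% over all nuclear pooled peaks. The intervals cover the sampling of peaks only. Replicate 2 overlapped 85.3% of the cluster peaks (interval 84.0 to 86.6) and 80% of those in the rest (78.6 to 81.4), and replicate 1 overlapped 40.1% and 40.7%. In the clusters 1577 peaks (54.4%) were met by replicate 2 alone against 266 (9.17%) by replicate 1 alone. In the rest of the chromosome these shares were 51.3% and 11.9%, so the imbalance was not particular to the clusters. The remaining 160 cluster peaks (5.52%) were in neither, against 8.06% in the rest.

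Overlap followed signal. Of cluster peaks in the lowest 25% of chromosome IV by pooled signal, 14.7% were overlapped in both replicates, and of those in the highest 25% the share was 53.4%. In the rest of the chromosome the shares were 10.9% and 56.8%. Nearness to piRNA genes did not separate the peaks: 51.1% of cluster peaks found in both replicates and 50.6% of the others were within 100 bp of a piRNA 5′ end. By piRNA number the shared portion was 29.2% of peaks with no piRNA 5′ end within 250 bp and 35.4% of the 226 peaks with 5 or more.

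Set directly against each other, 937 of 2131 replicate 1 peaks in the clusters (44.0%) overlapped a replicate 2 peak, which covered 15.1% of cluster bases. In the rest of the chromosome 29.9% did so, with 9.13% of bases covered. These shares of bases are not the overlap that placement alone would give. A replicate 1 peak, 340 bp wide, counts if any 1 of its bases is shared, which happens more often than coverage of a single base. Of the replicate 2 cluster peaks 31.4% overlapped a replicate 1 peak, and 29.7% in the rest. The higher share in the clusters thus appeared from the side of replicate 1, where replicate 2 also covered more of the DNA.

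**Figure D5:**
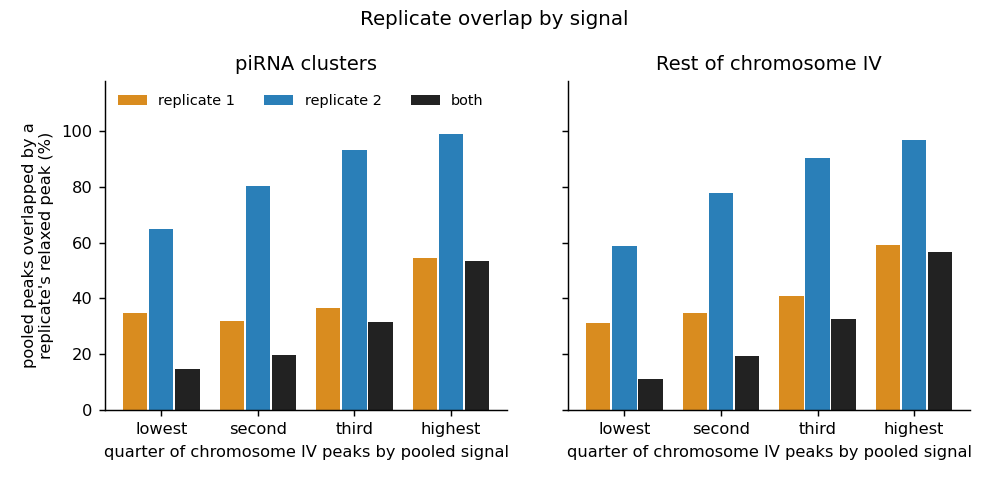
Share of pooled peaks (percent, vertical axis) overlapped by at least 1 bp by a relaxed peak of replicate 1, of replicate 2 or of both, in 4 equal groups of all chromosome IV peaks ranked on pooled signal (horizontal axis). The share in both runs from 14.7% to 53.4% in the clusters and from 10.9% to 56.8% in the rest of the chromosome.

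The thresholded list, the peaks that passed the submitters' limit on the irreproducible discovery rate (a measure of how alike the replicates rank peaks), held few peaks of the clusters. It kept 8 of 2900 (0.276%, exact 95% interval 0.119 to 0.543), 3 in the first cluster and 5 in the second, against 0.677% of all nuclear pooled peaks. The rest of chromosome IV kept 14 of 3227 (0.434%, interval 0.237 to 0.727). Per Mb this made 1.29 in the clusters and 1.24 in the rest, a ratio of 1.04, so the excess seen in the relaxed lists did not appear in these 22 peaks, too few for a precise ratio. Their summit windows in the clusters had a median GC content of 41.6%, far from the 25.7% of the relaxed cluster peaks. The same contrast appeared in the rest of the chromosome, at 48.5% for thresholded and 27.7% for pooled relaxed peaks.

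All 8 summits in the clusters were intergenic, as were 10 of the 14 in the rest of chromosome IV (71.4%). Sorted by the GC content of the summit window, the 8 formed 2 kinds. For 6 of the 8 a protein-coding 5′ end lay within 500 bp, no piRNA 5′ end within 250 bp, and GC content was 39.6 to 51.5%. In the rest of the chromosome a protein-coding 5′ end lay within 500 bp of 9 of the 14 (64.3%). The strongest, with its sequence shown above, lay 161 bp upstream of Y17G9B.5 and had a signal of 107.0 in the pooled list, 20.2 in replicate 1 (rank 91) and 87.2 in replicate 2 (rank 30). The peak 264 bp upstream of W03F8.4 had a pooled signal of 51.2 and ranked 89 and 246 in the replicates. The peak 130 bp upstream of C17H12.2 had 38.3 and ranked 1403 and 397. The first 2 of these were among the strongest 250 peaks of each replicate, and the third was not.

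In the second cluster the strongest peak lay 246 bp upstream of Y73F8A.27, with a pooled signal of 46.6 and replicate ranks of 426 and 127. The peak 222 bp upstream of the gene WBGene00194913 had 38.6, with ranks of 248 and 1069. The peak 283 bp upstream of dld-1, which encodes dihydrolipoamide dehydrogenase, a shared enzyme of mitochondrial 2-oxoacid dehydrogenase complexes, had 38.2 and ranked 3105 and 141. The replicates ordered these peaks differently, replicate 1 placing WBGene00194913 first and dld-1 last.

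The other 2 thresholded peaks lay among piRNA genes, 7979 and 3689 bp from the nearest protein-coding 5′ end. One, 99 bp upstream of the 5′ end of 21ur-9267 with 2 piRNA 5′ ends within 250 bp, had a pooled signal of 38.8, 5.92 in replicate 1 (rank 4214) and 32.5 in replicate 2 (rank 149). The other, with 7 piRNA 5′ ends within 250 bp, 21ur-2078 the nearest at 130 bp, had 37.7, 6.85 in replicate 1 (rank 2495) and 30.2 in replicate 2 (rank 182). Both ranked lower in replicate 1 than in replicate 2, as did most of the 6 thresholded peaks within 500 bp of a protein-coding 5′ end. The peaks upstream of W03F8.4 and WBGene00194913 ranked higher in replicate 1. All 8 thresholded peaks of the clusters were above the replicate 1 cluster median signal of 3.71. At the 21ur-9267 and 21ur-2078 peaks both replicates had their summits within 24 bp of the pooled one.

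Among the 5 strongest peaks of the first cluster, 2 did not pass the threshold. The peak 225 bp upstream of timm-17B.1, a gene of the mitochondrial inner membrane translocase, had a pooled signal of 37.1, 7.50 in replicate 1 and 28.7 in replicate 2, over DNA of 14.9% GC. The peak 30 bp upstream of Y73B6BL.29 had 36.4 and 8.61 in replicate 1, and no replicate 2 peak overlapped it.

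The peaks richest in piRNA genes were of ordinary strength. The peak with 10 piRNA 5′ ends within 250 bp, beside 21ur-129, had a pooled signal of 13.9, close to the cluster median, and no overlapping peak in either replicate. The peak with 9, whose summit was the 5′ end of 21ur-1415, had 10.2, with 4.28 in replicate 1 and 7.99 in replicate 2. In the first cluster the peak with 6 inside pqn-89, a gene for a protein with a glutamine- and asparagine-rich domain, had 16.3, 13.6 in replicate 2 and none in replicate 1. The peak with 6 in an intron of kcc-2, a potassium-chloride cotransporter gene, had 15.4, with 6.33 and 10.8 in the replicates. Ranked among 29431 pooled peaks, these 4 stood between 6450 and 24389.

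The edges of the clusters cut through relaxed peaks of the same range of signal. The first peak inside the first cluster had a pooled signal of 10.5 and the last before it 9.27, both in introns of gbb-2, a GABA type B receptor gene. The last inside had 14.0 and the first beyond had 11.6. At the second cluster the first inside had 10.6 and the last before it 13.0, and the last inside had 12.1 and the first beyond 16, the latter pair in introns of cnnm-1.

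Genes of the piRNA pathway were examined from a list of 25 names, 24 of which matched a protein-coding gene, with slfl-4 the only one inside the clusters. A pooled relaxed summit lay within 1000 bp of the 5′ end of 9 of the 24 (37.5%), against 46.1% of all 19973 nuclear protein-coding genes. Replicate 1 had 16 of 24 (66.7%, all genes 50.1%) and replicate 2 had 6 of 24 (25%, all genes 46.6%), so the replicates lay on opposite sides of the value for all genes. By group, the pooled list met 5 of 7 genes for transcription of piRNA genes, 2 of 11 for processing and 2 of 6 for effectors. The counts were 6, 6 and 4 in replicate 1 and 4, 1 and 1 in replicate 2, so those for processing and effectors depended on the library.

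Of the transcription genes, snpc-4, which encodes a subunit of the complex that starts small RNA gene transcription, had the only thresholded peak on the list, 741 bp from its 5′ end with a signal of 37.7, and 22.5 and 19.0 in the replicates. A thresholded summit lay within 1000 bp of 0.926% of all protein-coding genes. The genes of its partners had relaxed peaks alone, with a pooled signal of 9.26 for prde-1, 15.5 for tofu-4 and 11 for tofu-5. Among processing genes, parn-1, whose product trims piRNA 3′ ends, had 9.48 and henn-1, whose product methylates them, had 13.1. The values of prde-1 and parn-1 were near the lowest pooled signal of their chromosome, V (9.21). In replicate 2 parn-1 had no summit within 1000 bp. Of the effectors, mut-16, which organises small RNA amplification, had 11.7 but no summit within 1000 bp in either replicate. The RNA-dependent RNA polymerase gene ego-1 had 17.4, and summits in both replicates. The piRNA Argonaute gene prg-1 and the nuclear Argonaute gene hrde-1 had a relaxed peak in replicate 1 alone, at 3.38 and 5.13.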

How the data were processed

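The authors deposited peak lists for 2 biological replicates and for both pooled, each called against a control per the deposited notes. No source used here names the caller, the aligner or the threshold. The deposited signal is the caller's value per peak, on a scale of its own in each list, and was used to rank and describe peaks. The deposited −log10 q-values were not used. Lists on ce11 were read with positions counted from 1, piRNA and other genes came from Ensembl release 115 of WBcel235, and bases from RefSeq WBcel235. Depth is unknown.

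Density was summits per Mb. Nearness and GC content (50 bases on each side) of summits were set beside the same over every base. Intervals are exact (Clopper-Pearson, 95%) and cover sampling of peaks only. No test between groups was possible, so replicates stand side by side. Python 3.11.15, numpy 2.4.6, pandas 2.3.3 and scipy 1.17.1 were used, and ratios and overlaps were tested on simulated data.

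Named peaks were all thresholded peaks of the clusters, the 5 strongest of each, the strongest in both replicates, the 2 with most piRNA 5′ ends, those beside each edge, and pathway genes with a summit within 1000 bp. prg-1 and hrde-1 were named after their values were seen. Members and lists were chosen with earlier results of these data known. Alternatives covered each replicate, signal, edges, references, distances, windows, overlap rules and GC strata.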

Additional observations from a re-analysis of the deposited data

How the results depend on the processing

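Of 64 alternatives over 6 results, 49 stayed within the spread set for them, 15 moved and none reversed. The overlap share and the thresholded count could not be labelled reversed under the rule used. Keeping 1 peak per interval returned the main values, as all 2900 cluster peaks have distinct intervals, yet it is counted among the 49. That spread was 1 SD of the 2 replicate values, for overlap the exact 95% interval and for counts 1.5 times. With each replicate list alone, the density ratio was 1.17 to 1.66, the median signal ratio 1.01 to 1.07, the nearness ratio 1.39 to 1.68 and the GC difference −3.96 to −1.98 percentage points. The value farther from the pooled one was in each case that of replicate 1. Standardised over GC strata, the density ratio was 1.25 (1.08 and 1.27 in the replicates) and the nearness ratio 1.20 (1.20 and 1.17). With 500 bp in place of 100 bp the nearness ratio was 1.35. The share overlapped in both replicates was 42.1% for the upper 50% of peaks by signal (rest of the chromosome 43.6%), 20% with at least 50% of each peak overlapped (20.4%), 14.5% with summits within 100 bp (15.3%) and 2.31% with the strongest 5000 peaks of each replicate (2.63%). In these 4 the clusters were below the rest, where the main rule put them above. The cause of these moves was not tested. Moving the edges by 0.25 Mb, or taking bins with at least 50 piRNA genes, left every ratio within its spread and gave 7 to 10 thresholded peaks in place of 8. No paired analysis was possible because the study has 1 group. Depth is unknown, so no limit on weak sites can be given.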

Other observations

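One word stood out in the printed windows after the sequences were seen, and no test was made. GCGCAC, on either strand, was in 4 of the 8 thresholded summit windows of the clusters, those upstream of Y17G9B.5, W03F8.4, Y73F8A.27 and dld-1. It was in 2 of the 14 thresholded windows of the rest of chromosome IV and in 21 of the 199 nuclear ones (10.6%). Among relaxed peaks it was in 18 of 2900 cluster windows (0.621%) and 39 of 3227 in the rest (1.21%), and it was in 0.920% of the windows around every cluster base. The other 4 did not hold it, those beside 21ur-9267 and 21ur-2078 and those upstream of C17H12.2 and WBGene00194913.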
